A study of Drosophila melanogaster with 2 samples.

Results

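Introns of protein-coding genes, away from their promoters, held 562 of the peaks (24.5% of the final list, 95% Wilson interval 22.8 to 26.3) obtained when a p53-eGFP fusion protein was immunoprecipitated from Drosophila chromatin. A peak was counted here when its summit lay more than 500 bp from every protein-coding transcription start site (TSS), inside a protein-coding gene, and in no exon of any protein-coding transcript. Of the other peaks in the list, 1394 had a summit within 500 bp of such a TSS and are called promoter peaks, 282 lay outside protein-coding genes, and 52 lay in exons. Chromatin immunoprecipitation followed by sequencing (ChIP-seq) was done on whole embryos of the strain p53-MiMIC-GFP, of mixed sex and 0 to 24 h old. All embryos carried an extra exon for eGFP inside a p53 intron, so that the endogenous gene produces the fusion protein. The 2 samples are biological replicates numbered 2 and 3 of 1 group, with no second condition, and chromatin was sheared by sonication to 200 to 800 bp. The labels say in one place that an anti-GFP antibody was used and in another that the antibody was against p53. Both replicates share 1 control library, not analysed here. A whole embryo mixes many cell types and a day of development, so a peak cannot be placed in any one of them, and its height reflects both how many cells carry it and how strongly.

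p53 is a transcription factor known for switching on cell death and repair genes after DNA damage, and it binds DNA through pairs of a short half-site. In flies, introns of developmental genes often hold enhancers, which act on a promoter at a distance and need not act on the gene they lie in. First introns are known as a frequent place for such elements, and long first introns can also hold start sites of shorter transcripts, which the 500 bp limit removes only where they are annotated. The host gene of a peak is therefore a statement of position.

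The sequences under the 3 strongest intronic peaks are given as examples and need not be typical of strong members. The windows reach 100 bp to each side of the summit on the + strand of the dm6 (Release 6) reference, as RefSeq gives it. Capitals mark the pair of half-sites that came closest to a full p53 site, which had 5 mismatches of 20 positions at ush (2L:480991-481191), 6 at Lk6 (3R:11760947-11761147) and 5 at CG11050 (2L:6612639-6612839).
ush: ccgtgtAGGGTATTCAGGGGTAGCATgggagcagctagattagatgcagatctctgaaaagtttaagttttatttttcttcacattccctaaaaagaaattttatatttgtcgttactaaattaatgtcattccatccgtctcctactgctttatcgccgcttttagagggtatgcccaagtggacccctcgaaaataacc
Lk6: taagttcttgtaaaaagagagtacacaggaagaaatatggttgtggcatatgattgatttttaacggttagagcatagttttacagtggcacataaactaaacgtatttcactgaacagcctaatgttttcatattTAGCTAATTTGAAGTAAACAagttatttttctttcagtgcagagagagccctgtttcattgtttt
CG11050: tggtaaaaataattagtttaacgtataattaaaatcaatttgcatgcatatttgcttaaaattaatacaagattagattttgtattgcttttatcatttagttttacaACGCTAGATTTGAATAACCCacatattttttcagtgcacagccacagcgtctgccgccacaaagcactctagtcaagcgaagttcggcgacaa
None of these windows held a full p53 site, defined here as a pair of half-sites 0 or 1 bp apart with at most 3 mismatches.

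Of the 25 strongest intronic peaks, 5 held a full site within 100 bp of the summit. Such a site was held by 8.54% of all 562 intronic peaks. Windows of the same length tiled through the intron sequence open to the rule, with no regard to peaks, held one in 6.55%. The 5 sites are printed on the + strand, with the 4 core positions of each half-site in capitals whether or not they match. The sites had 1 mismatch at Atat (3L:9421793-9421812) and 3 mismatches at Mhc (2L:16787587-16787606), Tlk (X:3742146-3742166, with a spacer of 1 base), CG14434 (X:6866139-6866158) and Cralbp (3L:5785855-5785874).
Atat: gaaCATGttcaaaCATGcac
Mhc: ggaCGTGttcgtgCACGtct
Tlk: agcCTTGttaaaaaAATGtct
CG14434: gcaCATGtttagtCGTGttt
Cralbp: ccaCAAGtttcaaCATGttt
Across all 562 peaks, 2 held a site with 1 mismatch, 7 one with 2 and 39 one with 3, while in 266 the best pair had 5 mismatches. A site with at most 2 mismatches was held by 1.6% of intronic peaks and 0.646% of promoter peaks. Intronic regions of the authors' pooled list that overlap no final peak held one in 0.92%. Neither difference passed (two-sided Fisher's exact test, adjusted p = 0.153 and 0.547). The other sites with at most 2 mismatches, singled out after their values were seen, lay in introns of Hipk, a kinase gene (3L:548739-548758, peak signal 279.7), of Mnt, an antagonist of Myc (X:3682145-3682164, 168), of CG31523 (3R:4478298-4478317, 144), of ex, a gene of the Hippo pathway (2L:442106-442126, 142), of the kinase gene Btk (2L:8292630-8292649, 126), of NFAT (X:13626755-13626774, 106), of pnt, an ETS transcription factor (3R:23326511-23326530, 99.4), and of tara (3R:16255000-16255019, 89.7).
Hipk: ttgCATGctcgagCATGtct
Mnt: aaaCATGtccaaaCACGcac
CG31523: aaaCAAGtctgggCAATcct
ex: aaaCTTTcccagaaCAAActt
Btk: aaaCTTGtctaagCTTAact
NFAT: aagAAAGtgtaagCATGtct
pnt: aaaCTTGcacgggCTTGtta
tara: cagCATGtctagaCTCGctc
The number after each position is the authors' signal value of the peak, which measures peak strength on a scale that the sources used here do not give.

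Intronic and promoter peaks covered similar ranges of strength. Signal values of intronic peaks ran from 75.9 to 934 with a median of 107 (quartiles 87.8 and 144), and promoter peaks had a median of 110 (88.6 and 148) and a maximum of 1970. Among the 458 strongest peaks of the final list were 107 of the 562 intronic peaks (19.0%, 95% Wilson interval 16 to 22.5) and 272 of the 1394 promoter peaks (19.5%, 17.5 to 21.7), an odds ratio of 0.97 (two-sided Fisher's exact test, p = 0.85). The odds ratio was 1.12 with the promoter limit at 250 bp and 1.07 without replicate 2. Peaks outside genes had a median of 106. Intronic peaks were 27 of the 114 strongest, 51 of the 229 strongest and 269 of the 1145 strongest, so their share stayed between 22.3% and 23.7% down the upper part of the list. The values come from both replicates pooled by the authors, so a peak carries no replicate error of its own, and the number of reads behind it is unknown. The deposited −log10 q-value adds little to this ranking, because 507 of the 562 intronic peaks share its highest value of 3.612.

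The pooled list from which the final list was drawn holds 26752 regions, of which 8.56% are in the final list. By the same rule of position 8918 of them were intronic, and 562 of these (6.3%) were final peaks. The 8261 pooled intronic regions that overlap no final peak serve below as the comparison for position and sequence. They are weak regions, with signal values from 23.2 to 75.7, and only 287 had a deposited q of 0.01 or less.

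In replicate 3 all 562 intronic peaks overlapped a region of the replicate's own list, and in replicate 2 560 did. The authors chose the final list by reproducibility between replicates, so this overlap follows largely from that choice and is no separate support. The median signal value was 44.3 in replicate 2 (range 12 to 446) and 64.2 in replicate 3 (25.2 to 490), and the 2 lists were not put on one scale. Replicate 3 gave the higher value for 483 of the 560 peaks found in both, with a median ratio of 1.43, and promoter peaks showed a ratio of 1.52. Spearman's rho between the replicates was 0.537 over these 560 peaks and 0.592 over 1391 promoter peaks, a description over peaks that share libraries and a control. A q of 0.01 or less was reached by 423 intronic peaks (75.3%) in replicate 2 and by 555 (98.8%) in replicate 3. Over whole lists, 1847 regions reached it in replicate 2 and 4186 in replicate 3, each of 30000.

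**Figure D1:**
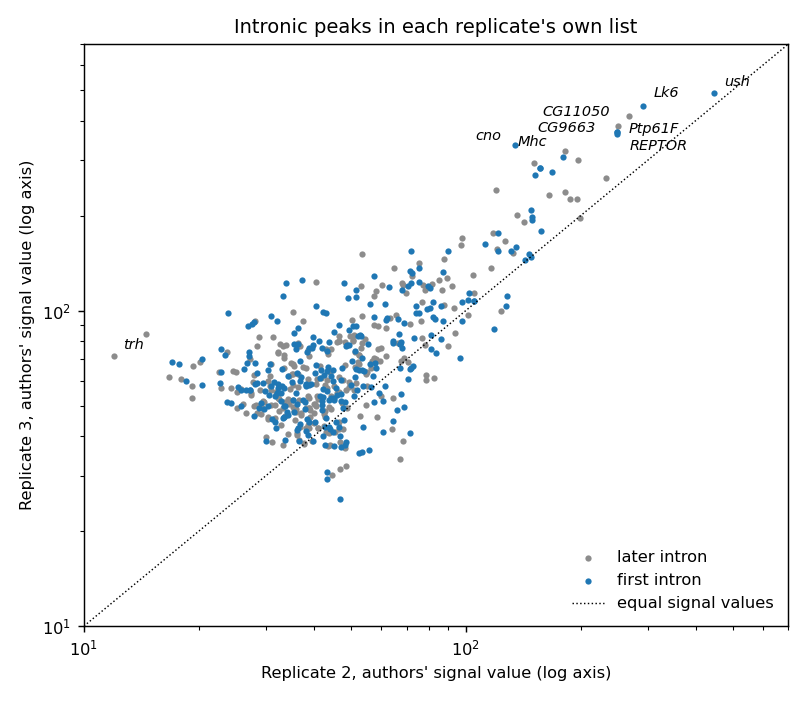
Authors' signal value of each intronic peak in replicate 2 (horizontal, log axis) and in replicate 3 (vertical, log axis), 1 point for each of the 560 peaks found in both lists, blue for first introns and grey for later ones, with a dotted line of equal values. The strongest peaks, ush and Lk6 among them, stand at the top in both replicates, and trh lies at the left edge, low in replicate 2.

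The replicates differed in which intronic peaks they ranked high. Each replicate's strongest regions were taken, as many as the final list holds. Those of replicate 2 were overlapped by 470 intronic peaks (83.6%), against 81.5% of all final peaks and 1123 promoter peaks (80.6%), an odds ratio of 1.23 (two-sided Fisher's exact test, adjusted p = 0.123 over both replicates), and with the promoter limit at 250 bp that difference passed (odds ratio 1.47, adjusted p = 0.00299, and up to 0.233 over 5 alternatives). In replicate 3 they were overlapped by 462 intronic peaks (82.2%), against 86.6% of all final peaks and 1229 promoter peaks (88.2%), odds ratio 0.62 (exact test, adjusted p = 0.00151, and 5.6e-05 to 1 over 5 alternatives). Intronic peaks thus reached replicate 3's upper ranks less often than promoter peaks. The call was lost when a q of 0.01 or less was asked for in place of the rank (98.8% against 99%, Fisher's exact adjusted p = 0.632), and in the stronger 1145 peaks (99.6% against 99.7%, adjusted p = 1). In both settings nearly every peak of either kind met the mark, so they could show little difference. Peaks are not replicates, so these and the other Fisher p-values cover counting over peaks only. By rank in both lists, 380 intronic peaks (67.6%) stood among the strongest of both replicates, 90 (16%) of replicate 2 alone, 82 (14.6%) of replicate 3 alone and 10 of neither.

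A few members rested mostly on 1 replicate. An intronic peak of tna (signal 114) overlapped no region of replicate 2 and had a value of 108 in replicate 3. One of the 5 peaks of ush (2L:510431-510826, 79.8) was likewise missing from replicate 2 and had 72.4 in replicate 3. The peak in trh, a transcription factor gene of tracheal development, had 11.97 in replicate 2, where it ranked 29116, and 71.7 in replicate 3, where it ranked 964. In for, which encodes a cGMP-dependent protein kinase, the weaker of 2 peaks (2L:3628789-3629184, 101.6) had 14.5 and 84.3, while the stronger (294.5) had 135 and 159. In all, 12 intronic peaks were missing from replicate 2 or ranked below 8000 there. The reverse was milder: 5 peaks ranked below 5000 in replicate 3, the lowest in CG9328 (47.0 in replicate 2 and 25.2 in replicate 3, rank 7863).

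The strongest intronic peak lay in the first intron of ush, which encodes a Friend-of-GATA cofactor, at 2L:480925-481265. Its signal value was 934, at rank 6 of the final list, with 445.7 in replicate 2 (rank 4) and 490 in replicate 3 (rank 8). The nearest TSS, 1403 bp away, belonged to the neighbouring gene cbt, which encodes a zinc-finger transcription factor, while the nearest TSS of ush itself was 4871 bp away. Next came a peak in the first intron of Lk6, a kinase that phosphorylates the translation factor eIF4E, at 3R:11760898-11761186 (743; 290.9 in replicate 2 and 444 in replicate 3), 968 bp from a TSS of Lk6. The third, at 2L:6612548-6612890 in CG11050 (681, and 268 and 413 in the replicates), had its summit in an intron of only 140 bp. The peak is wider than that intron, so its place there rests on the summit alone.

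Ptp61F, a tyrosine phosphatase gene that restrains JAK/STAT signalling, followed with a peak at 3L:1366779-1367076 (639.7; 250.3 in replicate 2 and 385 in replicate 3). It lay in a 126467-bp intron, 3699 bp from the TSS of ru, a rhomboid protease gene. CG9663 had a first-intron peak at 2L:3302033-3302322 (614; 249 and 364). REPTOR, a bZIP transcription factor held back by the TORC1 kinase, had one at 3R:24582013-24582300 (611; 249.5 and 368), 711 bp from its TSS. These 6 peaks ranked between 4 and 24 in both replicates. They were taken by the pooled signal value, which comes from the same replicates, so their high ranks are a description only.

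Among the 25 strongest, ranks ran down to 139 in replicate 2 and 122 in replicate 3. The peak in Mhc, the muscle myosin heavy chain gene, lay in the last of 18 introns at 2L:16787481-16787798 (499.5; 182 and 319), and Cyt-b5-r had the nearest TSS, at 3067 bp. A peak of Atat, an alpha-tubulin acetyltransferase gene, at 3L:9421681-9421945 (487, and 180.2 and 308 in the replicates) held the full p53 site with 1 mismatch printed above. The Mhc peak was the strongest intronic peak with a full site, which had 3 mismatches. Values of cno, the afadin homologue of adherens junctions, were the least even of the 25, at 134 in replicate 2 and 334 in replicate 3. The others lay in e(y)3, CG32772, ctrip, Lrch, HmgD, Raf, Tlk, CG14434, Adf1, osa, hiw, CG32486, Smr, CG3726, Cralbp and NFAT, with signal values from 337 to 498. Of these, osa encodes a subunit of the Brahma chromatin remodelling complex, Smr a corepressor, HmgD an HMG-box chromatin protein and hiw a ubiquitin ligase of synapse growth. The first intron held 13 of the 25, another gene had the nearest TSS at 8, and 10 host genes also had a promoter peak of their own. Over all intronic peaks the first intron held 51.1%, and another gene had the nearest TSS at 107 of 562. Of all host genes, 34.9% had a promoter peak of their own.

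First introns held 287 of the 562 peaks (51.1%), the second intron 179 (31.9%), the third 39 (6.94%) and later ones 57 (10.1%). Introns were numbered in the longest transcript that spans the summit. Of the weak pooled intronic regions, 3336 of 8261 (40.4%) lay in first introns, an odds ratio of 1.54 (two-sided Fisher's exact test, p = 8.2e-07). First introns make up 29.3% of the 52.6 Mb of intron sequence open to the rule. With only the strongest region of each host gene on both sides, which was added after the data had been seen, first introns took 54.3% and 48.6% (p = 0.0333 by Fisher's exact test). Against the 287 intronic regions that reached a q of 0.01 but not the final list, first introns took 51.1% and 52.3% (odds ratio 0.953, with p = 0.772 by Fisher's exact test), so the call ended and its direction turned. Over 9 alternatives p ran from 1.9e-13 to 0.772. Counting a first intron of any transcript, the shares were 71.4% and 56.6%.

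Distance from start sites is given as a description with no test, because the rule used it when it removed summits within 500 bp. The median distance to the nearest TSS was 2217 bp (quartiles 1026 and 5556, range 504 to 49800), against 3898 bp for weak pooled intronic regions. A distance of 501 to 2000 bp, a range chosen after seeing the data, was held by 264 peaks (47%) and 2469 weak regions (29.9%). The shares were closer together against intronic regions with a q of 0.01 or less, which held it in 41.5%, and with 1 region per host gene, at 52.4% and 48.1%. By distance, 24.4% of the peaks lay at 501 to 1000 bp, where 7.56% of the intron bases lie, and 10.9% lay beyond 10000 bp, where 37% of the bases lie. The 2 position measures were linked: 66.4% of peaks at 501 to 1000 bp were in first introns, against 60.1% of the weak regions there, and 21.3% and 22% beyond 10000 bp. Between 5001 and 10000 bp the first-intron shares were 48.5% and 33.2%.

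**Figure D2:**
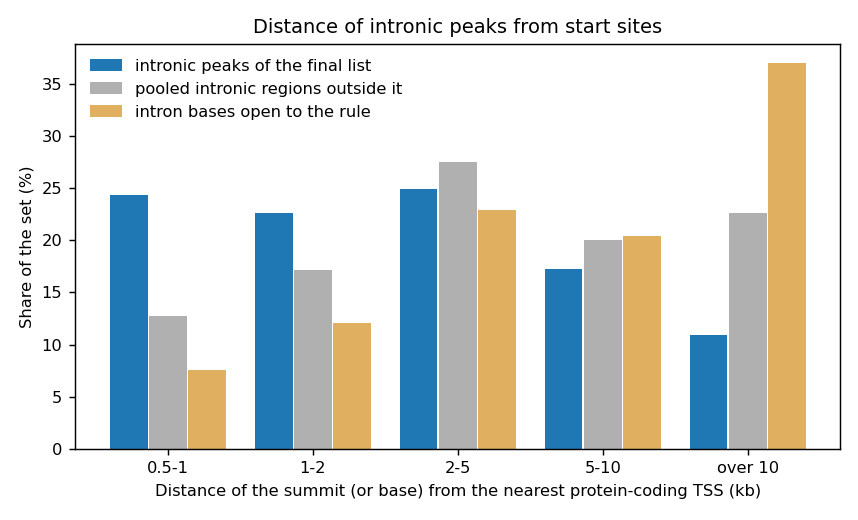
Share (%) of intronic peaks of the final list (blue, n = 562), pooled intronic regions outside it (grey, n = 8261) and intron bases open to the rule (yellow) by distance from the nearest protein-coding TSS (kb). Blue bars are above the other colours in the first and second bins, at 24.4% and 22.6%, and below them beyond 10000 bp, at 10.9%.

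The nearest TSS belonged to the host gene for 455 peaks (81%) and to another gene for 107. Measured to the host's own TSSs, 142 peaks (25.3%) lay upstream of the closest one, between alternative starts of the same gene, against 19.4% of weak regions. A start site of a non-coding gene lay within 500 bp of 23 peaks, 22 of them at genes annotated as ncRNA and 1 at a tRNA gene. The host introns were long, with a median of 10966 bp (140 to 126467). Just beyond the 500 bp limit, and so counted as intronic, stood peaks of Daxx (504 bp, signal 120.2), CG31523 (505 bp, 144) and rols (508 bp, 83.2). Just within it, and so counted as promoter peaks, stood those of Myo61F (499 bp, 77.4), CAP (496 bp, 90.02) and spoon (495 bp, 402).

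The peaks fell in 416 host genes, 4.91% of the 8473 protein-coding genes that have any intron sequence open to the rule. A single intronic peak was found in 323 hosts, 61 had 2, 23 had 3 and 9 had 4 or more. The 93 hosts with several peaks held 239 of the 562. Hosts were genes with long introns: their median of eligible intron sequence was 13749 bp, against 486 bp over all such genes. None of the 3393 genes with the least intron sequence was a host, and 314 of the 1695 with the most (18.5%, 5356 bp and up) were. Peaks of a gene can also touch each other, as 12 members overlapped another member. At REPTOR the weaker of an overlapping pair (3R:24582158-24582553, 80.25) shares the replicate regions of the strong one.

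The largest number of intronic peaks, 8, lay in CG1677 (X:7281089-7405797), and the peaks were weak and even. All lay in its 73902-bp second intron, with signal values from 76.9 to 114.9. That intron holds other genes, and the nearest TSSs were those of unc-119, brk, Atg5, Dok, CG42780 and CBP, none of them the host. In replicate 2 the values ran from 25.1 to 55.0, and in replicate 3 from 30.2 to 63.0.

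Raf (X:2295466-2343870), the kinase between Ras and MAP kinase in EGFR signalling, had 7 peaks, all in its second intron. From the 5′ end their signal values were 126, 428, 121.5, 161, 116, 100.6 and 81.7, and 6 of the 7 lay within 8665 bp of the gene's TSS. The strongest, at X:2297592-2297826, had 195.5 in replicate 2 and 225 in replicate 3. Others were uneven: the third peak had 28.1 and 92.6, and the sixth 68.4 and 38.7. Raf had no promoter peak.

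Tlk (X:3720007-3789770), the tousled-like kinase gene, had 6 peaks in its second intron, with signal values of 424, 103, 85.0, 128, 120.2 and 78.2 from the 5′ end. All of them lay between 874 and 3494 bp from some TSS of Tlk, which has several start sites. Hr4 (X:1941940-2007956), a nuclear receptor gene of the ecdysone response, had 5 peaks with values of 163, 250.8, 197, 160.2 and 106, each between 5820 and 23216 bp from its TSSs. In each replicate all 5 peaks of Hr4 ranked 1465 or better. The 5 peaks of kirre (X:2740384-3134532), an adhesion gene of myoblast fusion, formed a pair in intron 2 (88.05 and 86.1) and a group of 3 in intron 5 (104, 86.3 and 192).

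ush (2L:476220-540560) had 5 peaks, 3 in the first intron (934, 80.6 and 164) and 2 in the second (79.8 and 113). Its first and second peaks lay 821 bp apart. rdx (3R:13967061-14032057), an adaptor of a Cul3 ubiquitin ligase, had 4 peaks of 85.6, 144.5, 84.9 and 214, and 2 promoter peaks besides. tara (3R:16225651-16260329) has a single intron in the transcript used, and its 4 peaks had values of 83.1, 129, 139 and 89.7. sbb, on arm 2R, had 4 peaks, of which 1 was strong (258) and the others had values from 90.25 to 107.

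**Figure D3:**
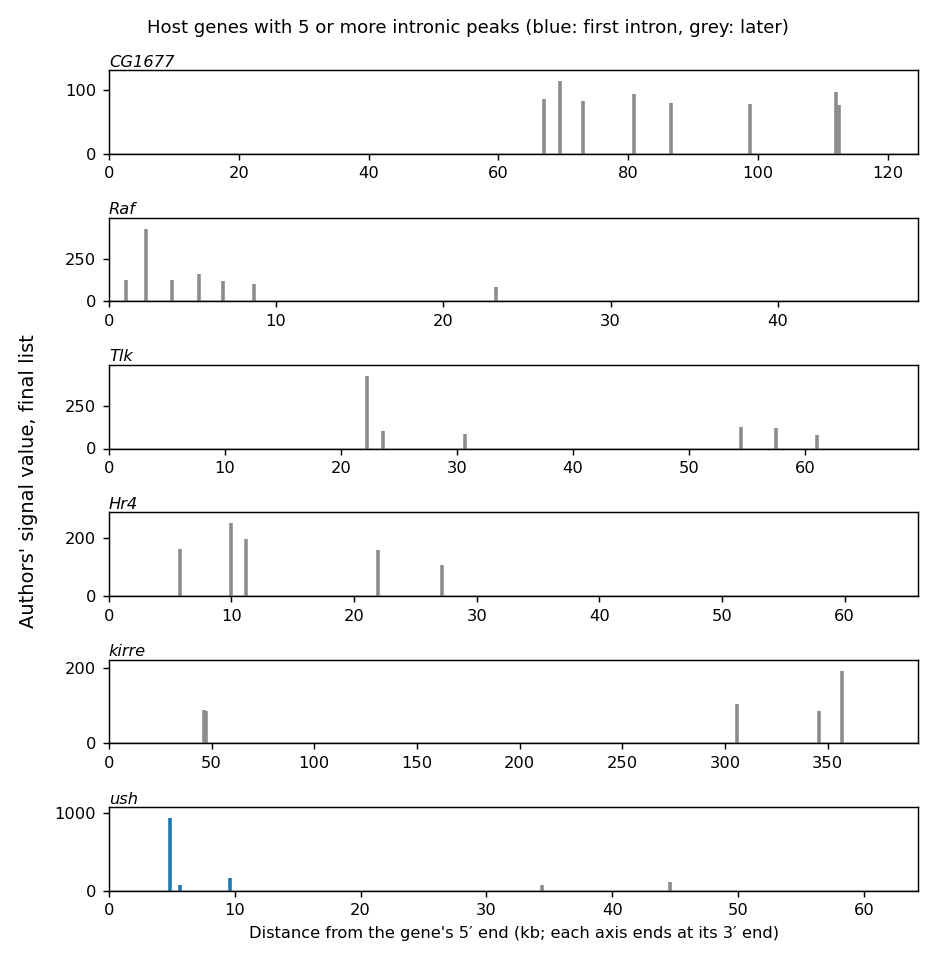
Authors' signal value (vertical) of each intronic peak in the 6 host genes with 5 or more, against distance from the gene's 5′ end (horizontal, kb), blue for first introns and grey for later ones. In Raf, Tlk and ush 1 peak stands far above the rest, at 428, 424 and 934, while the 8 peaks of CG1677 stay between 76.9 and 114.9.

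Of the 9 hosts with 4 or more peaks, 5 are on the X chromosome. The X held 136 intronic peaks (24.2%), 18.4% of the intron bases open to the rule and 17.1% of weak pooled intronic regions. Promoter peaks were on the X in 17.3% and peaks outside genes in 13.1%. Without the 9 hosts the X held 105 of 514 intronic peaks (20.4%). These shares are a description, and no test was made of them. The other arms held 99 (2L), 95 (2R), 96 (3L), 135 (3R) and 1 (4).

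A promoter peak of their own, with a summit within 500 bp of their own TSS, was held by 145 of the 416 host genes (34.9%) and by 13.3% of all 13945 protein-coding genes. Among genes of the longest intron class the shares were 119 of 314 hosts (37.9%) and 208 of 1381 other genes (15.1%). These shares were not tested. The other 271 hosts had intronic peaks with no promoter peak of their own.

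Gene lists for roles in the embryo, 6 in all, are described by counts only, beside the 4.91% of all genes with eligible introns that were hosts. Ecdysone response genes, which act downstream of the moulting hormone, were hosts in 6 of 15 cases with eligible introns (40%), holding 13 peaks. All 15 belong to the longest intron class, where 18.5% of genes are hosts. The strongest peak was 250.8 in Hr4, 232 in EcR, the ecdysone receptor gene, 194 in Hr3, a nuclear receptor gene, and 135.5 in Eip63E, a kinase gene. EcR had 87.5 in replicate 2 and 145 in replicate 3, and Hr3 79.5 and 119. EGFR signalling genes were hosts in 7 of 18 (38.9%) with 17 peaks, 7 of them in Raf, and 6 of the 7 hosts are among the 11 genes that the list has in the longest class. S, which encodes Star, a protein needed to export EGFR ligands, had 3 peaks up to 216, vn, an EGFR ligand gene, 1 of 169.9, and drk, an adaptor gene, 1 of 140.3.

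Growth and nutrient signalling genes were hosts in 9 of 33 (27.3%) with 16 peaks, 8 of the 9 in the longest intron class, where the list has 12 genes. Besides Lk6 and REPTOR they included InR, the insulin receptor gene, with 3 peaks up to 273, and chrb, an inhibitor of TOR signalling, with 2 up to 188. Axon guidance and adhesion genes were hosts in 9 of 46 (19.6%) with 14 peaks, and all 9 are among the 40 genes that the list has in the longest class. The strongest lay in kirre (192), fra, the netrin receptor gene (162), NetB, a netrin gene (145), and Fas3, a cell adhesion gene (109.9). JNK and cell death genes were hosts in 5 of 26 (19.2%) with 6 peaks, in Diap1, an inhibitor of apoptosis (146), puc, a JNK phosphatase gene (104), kay, the Fos gene (89.0), msn, a kinase gene (80.4), and Traf4 (77.6). All 5 are among the 8 genes that the list has in the longest class. That count was 2 without replicate 2 and 1 in the stronger 1145 peaks. Patterning and Hox genes were hosts in 6 of 33 (18.2%) with 13 peaks, led by ush, the BMP ligand gene dpp (126), its antagonist sog (113) and the homeobox gene hth (95.7). All 6 are among the 20 genes that the list has in the longest class, where 18.5% of genes are hosts. Promoter peaks were found at 13 of 34 growth genes (38.2%), 12 of 35 JNK and cell death genes (34.3%) and 9 of 25 EGFR genes (36%). They were found at 11 of 47 axon guidance genes (23.4%), 3 of 17 ecdysone genes (17.6%) and 3 of 45 patterning genes (6.67%), beside the 13.3% of all genes.

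The words of DREF and M1BP were rarer in intronic than in promoter peaks. The word of DREF (TATCGATA), a factor of housekeeping promoters, lay within 100 bp of the summit in 3 intronic peaks (0.534%) and 140 promoter peaks (10%), an odds ratio of 0.0481 (two-sided Fisher's exact test, adjusted p = 1.0e-16 over 12 words). The word of the promoter factor M1BP (GGTCACAC) lay in 4 intronic peaks (0.712%) and 103 promoter peaks (7.39%), odds ratio 0.0898 (exact test, adjusted p = 9.6e-11). Both stood at the level of weak pooled intronic regions, which held them in 0.436% and 0.448%, and of the 26244 windows of the same length tiled through the eligible introns, which held them in 0.434% and 0.274%. Both differences from promoter peaks held under each of the 6 alternatives, with Fisher's exact adjusted p up to 2.5e-04. The rule split these sets by distance from a TSS, and both words are those of promoter factors. The differences thus follow largely from the rule and are no separate support. Peaks outside protein-coding genes held the DREF word in 1.77% and the M1BP word in 0.355%. All words were searched on both strands.

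Other words were more frequent in intronic than in promoter peaks. A CA repeat (CACACACA) was held by 45 intronic peaks (8.01%) and 4.38% of promoter peaks, an odds ratio of 1.9 (two-sided Fisher's exact test, adjusted p = 0.00764). The AP-1 word TGANTCA, read by Jun and Fos, was held by 32 (5.69%) and 2.87%, odds ratio 2.04 (exact test, adjusted p = 0.0146). Neither differed past the threshold from weak pooled intronic regions (7.07% and 4.72%, Fisher's exact adjusted p = 0.585 for both), and tiled intron windows held them in 5.01% and 4.49%. The AP-1 call was lost with windows that reach 50 or 150 bp to each side of the summit. It was also lost in the stronger 1145 peaks and when either replicate was left out (Fisher's exact adjusted p of 0.0163 to 0.66 over 6 alternatives). The CA repeat call was lost in the stronger peaks alone (0.00646 to 0.0612). The GAGA word GAGAGAG was in 5.69% of intronic peaks, 5.74% of promoter peaks (Fisher's exact adjusted p = 1), 4.33% of weak regions (adjusted p = 0.547) and 2.82% of tiled windows. Against weak regions it passed without replicate 3 (odds ratio 1.92) and with 150 bp to each side of the summit (1.93). Its exact adjusted p over 7 alternatives ran from 1.2e-04 to 0.889. The words of Zelda (CAGGTAG), of C/EBP-ATF pairs (TTGCATCA) and the E-box CACGTG lay in 6, 1 and 20 intronic peaks and did not pass in either comparison.

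**Figure D4:**
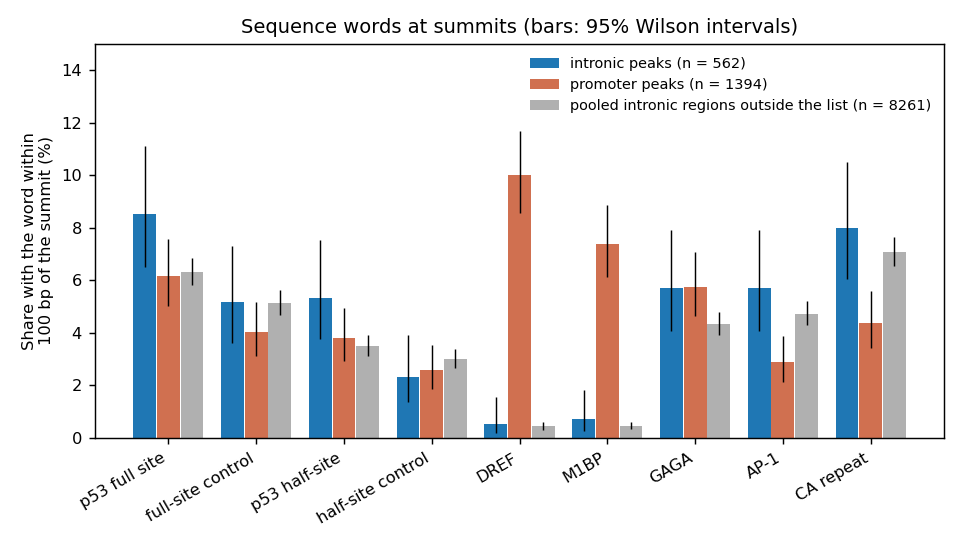
Share (%) of intronic peaks (blue), promoter peaks (red) and pooled intronic regions outside the final list (grey) with each of 9 sequence words within 100 bp of the summit; bars are 95% Wilson intervals, which cover counting over peaks only. DREF and M1BP stand at 10% and 7.39% in promoter peaks and below 1% in both intronic sets.

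The full p53 site was held by 48 intronic peaks (8.54%, 95% Wilson interval 6.5 to 11.1), 6.17% of promoter peaks, 6.32% of weak pooled intronic regions and 6.55% of tiled intron windows. Peaks outside protein-coding genes held it in 8.51%, a share close to that of intronic peaks. Neither test passed, with an odds ratio of 1.42 against promoter peaks (two-sided Fisher's exact test, adjusted p = 0.179) and 1.38 against weak regions (adjusted p = 0.248). Within 50 bp of the summit both passed, at 5.52% against 2.65% of promoter peaks (odds ratio 2.14, Fisher's exact adjusted p = 0.00772) and 3.05% of weak regions (odds ratio 1.86, adjusted p = 0.0331). Over all alternatives the adjusted p of the exact test ran from 0.00772 to 0.639 against promoter peaks and from 0.00378 to 0.839 against weak regions, where it also passed without replicate 2 and in the stronger 1145 peaks. Of the 48 sites, 17 were centred within 25 bp of the summit. A control pair, made by exchanging the ends of each half-site, was held by 5.16% of intronic peaks, 4.02% of promoter peaks and 5.13% of weak regions, and within 50 bp by 2.49%, 2.01% and 2.45%. Within 100 bp, tiled windows held the control pair in 6.02% and peaks outside genes in 6.74%. The exact half-site was held by 30 intronic peaks (5.34%), 3.8% of promoter peaks (Fisher's exact adjusted p = 0.274), 3.51% of weak regions (adjusted p = 0.248) and 3.6% of tiled windows. Peaks outside genes held the half-site in 6.03%. Base composition moved with these sets: the median GC of the windows was 38.3% in intronic peaks, 40.8% in promoter peaks and 42.8% in weak regions, and its part in the word shares was not tested.

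By strength, the intronic peaks were put in 5 groups of 112 or 113, and the full site is given as counts without a test. In the strongest group, with signal values of 162 and up, 16 of 113 peaks (14.2%) held one. The counts in the next groups were 11, 9, 7 and 5, the last of 112 peaks with values of 75.9 to 85.2 (4.46%). The control pair gave 8, 2, 3, 11 and 5 and showed no such order. A higher share among strong peaks was not particular to introns. In the stronger 1145 peaks of the list the full site was held by 11.2% of intronic and 8.37% of promoter peaks, against 8.54% and 6.17% over all. The control pair was held there by 4.46% of intronic and 5.25% of promoter peaks, against 5.16% and 4.02% over all. First introns held 54.9% of the strongest group and 45.5% of the weakest, and 50.4% and 40.2% lay within 2000 bp of a TSS. Peak width changed as well: 53 of the 113 strongest had the width of 396 bp that 498 of all 562 share, and the rest were narrower, while all 112 of the weakest had it. Its part in these shares was not tested.

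**Figure D5:**
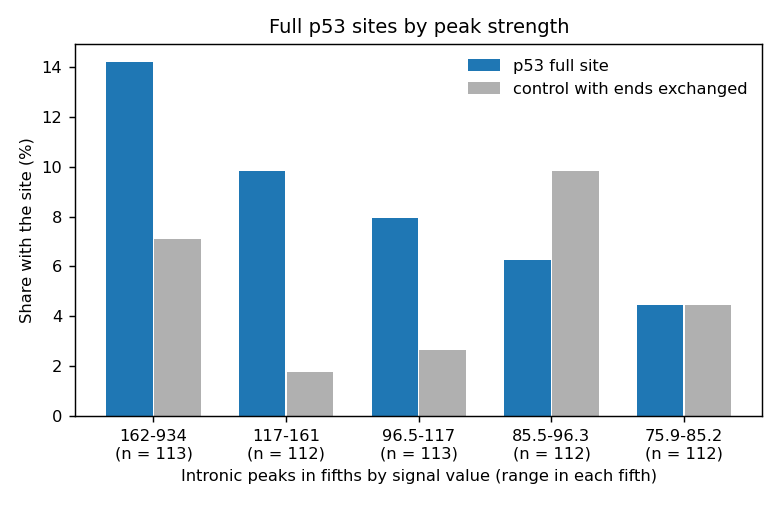
Share (%) of intronic peaks with a full p53 site (blue) and with the control pair (grey) within 100 bp of the summit, in 5 groups by the authors' signal value, strongest at the left. The full site stands at 14.2% in the strongest and 4.46% in the weakest group, and the control pair has its highest bar, 9.82%, in the group of 85.5 to 96.3.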

How the data were processed

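ChIP-seq peak lists of 2 replicates, of their pool and the final list of 2290 peaks chosen by the irreproducible discovery rate (IDR) were used on dm6, per the deposited provenance lists. The lists on the other of the 2 builds, dm3, were not used. The authors deposited a signal value and a −log10 q-value per peak, and these serve here for ranking, filtering and description inside a list. The sources used here give no aligner, caller, IDR threshold, signal scaling or read depth, so intervals cover counting error only.

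Summits were placed on Ensembl release 115 gene models, and 98.9% of 58570 introns had GT and AG ends on the Release 6 genome used. Sequences and words come from that RefSeq genome. Two-sided Fisher's exact tests on shares were run in scipy 1.17.1, adjusted by the Benjamini-Hochberg method over 12 words within each comparison or over 2 replicates, with a threshold of 0.05, and checked on simulated data. Intervals are 95% Wilson intervals. Without a replicate, the other's own list stood in, at the same number of regions. Named genes are hosts of the 25 strongest intronic peaks, hosts with 4 or more, up to 4 hosts a list, and 3 peaks on each side of the 500 bp limit; others were named after their values were seen. Unmatched list members (Eip71CD, Eip55E, Tor, h, nos and Gap1) were left out. Members, lists and tests were chosen with earlier results of these data known.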

Additional observations from a re-analysis of the deposited data

How the results depend on the processing

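Of 184 tested odds ratios under alternatives, 141 changed neither direction nor call, 28 changed direction, 9 lost a call (1 of them also changing direction) and 7 gained one. Of 38 counts and shares with no test, 28 stayed close to the reported value and 10 moved. No paired analysis was possible because there is 1 group. The cause of these changes was not tested. The share of intronic peaks was 28.7% at 250 bp from a TSS, 18.6% at 1000 bp, and 22.7% to 27.2% with a replicate left out. Other values here are odds ratios. With a background q of 0.01 or less, first introns gave 0.953, and against weak regions the control pair 0.726 and GAGA 0.852, and DREF gave no odds ratio because the background held none. Leaving out a replicate gave 1.59 to 1.84 for first introns and 0.854 to 1.07 for the strongest 458 peaks, and the last was 1.12 at 250 bp. With 1 region per host, Zelda against promoters gave 0.772. Replicate 2's strongest regions gave 1.47 at 250 bp and 0.475 in the upper 1145 peaks, and replicate 3's gave 0.762 there and 0.804 by q. Against promoters, 50 bp to each side of the summit gave 2.14 for the full site, 1.16 for GAGA and 1.63 for AP-1. With 150 bp to each side, GAGA gave 1.35, C/EBP-ATF 1.56 and AP-1 1.6. With 2 mismatches the control pair gave 0.55. In the upper 1145 peaks the control pair gave 0.843, C/EBP-ATF 1.31, AP-1 1.49, the E-box 0.8 and the CA repeat 2.02. With a replicate left out, GAGA gave 1.04 to 1.36, C/EBP-ATF 0.925 to 2.08, AP-1 1.17 to 1.7 and the E-box 0.838 to 1.2. Against weak regions, 50 bp to each side gave 1.86 for the full site and 1.18 for Zelda. With 150 bp to each side, the control pair gave 0.874, DREF 0.918 and GAGA 1.93. With 2 mismatches the control pair gave 0.667. In the upper 1145 peaks the full site gave 1.86, the control pair 0.863 and M1BP 0.829. With a replicate left out, the full site gave 1.42 to 1.78, the control pair 0.908 to 1.08, DREF 0.779 to 0.9, GAGA 1.3 to 1.92 and AP-1 0.968 to 1.03. In the upper 1145 peaks there were 229 host genes, 30 with 2 or more peaks, and 4 axon guidance, 1 JNK and 3 patterning hosts. With a replicate left out there were 393 to 449 hosts and 2 to 4 JNK hosts. With no counts per peak, the depth behind a lost call is unknown.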
